A study of Mus musculus with 31 samples.

Results

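The results below describe 30 microglia marker genes in RNA-seq libraries of sorted mouse astrocytes, the star-shaped support cells of the brain. The genes were chosen by their symbols, and the 30 are among 55401 genes in the deposited tables. They fall into 13 homeostatic members, 14 members shared with other myeloid cells and 3 activated members. Each symbol matched 1 gene.

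Microglia are the resident macrophages of the brain. In their resting, or homeostatic, state they express surface proteins such as P2ry12 and Tmem119 that blood-derived cells express little or not at all. A larger set of genes, among them Tyrobp, Ptprc and Spi1, is used by microglia and also by monocytes, macrophages and, in part, neutrophils, while Cst7, Itgax and Lpl mark microglia that have become activated around damage. Astrocytes normally express few of these genes. Whether their counts in a sorted astrocyte sample come from other cells, RNA of other cells or the astrocytes was not tested.

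The 12 libraries carry 4 labels with 3 replicates each, and all come from female C57Bl/6 mice aged 10 weeks. The title of each library begins with SPF. Mice labelled cytokine received IL-1β at 100 ng/mL with TNF-α at 50 ng/mL, and mice labelled PBS received the saline vehicle, in both cases into the lateral ventricles. The injection volume was 5 µL. In the 1X groups the injection was on day 7, and in the 2X groups mice injected earlier were injected again on that day. Astrocytes were sorted 18 to 24 hours after the last injection. A short label on the cytokine samples names TNF-α only. Which surface markers the sort used is not stated in the sources used here. Nor do the labels tie each library to a separate animal, so that p-values reflect the spread among libraries, and this may be technical.

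Regulatory sequence of the members is shown first, because PU.1, the protein made from the member Spi1, is the master transcription factor of the myeloid lineage and binds purine-rich sites around a GGAA core. The 250 bases upstream of the start site (RefSeq, GRCm38.p6) were available for 22 of the 30 genes. Counted by gene, at any start site, the letters GAGGAA on either strand stood in 9 of 11 shared myeloid members, 2 of 9 homeostatic members and 0 of 2 activated members. They stood in 25.9% of 27025 mouse genes counted the same way, and in 23.3% of the 32851 separate promoters of this length. The letters AGGAAG, which overlap GAGGAA by 5 letters, stood in 7 of 11, 5 of 9 and 1 of 2 of these members, and in 32.3% of all genes. The longer GAGGAAGT stood in 1 shared myeloid member, C1qc, and in 2.79% of all genes. The motifs were chosen with the members' values known, and a match is a description of the letters only. The 4 examples are printed 5′ to 3′ on the strand of the gene, with GAGGAA or AGGAAG, on either strand, in capitals. They show 3 shared myeloid members at which GAGGAA lies close to or far from the start, and P2ry12, a homeostatic member with AGGAAG only. The Cd53 window is chr3:106790150-106790399 on the minus strand, with GAGGAA starting at -39 from the start site. The C1qb window is chr4:136886201-136886450 on the minus strand, with GAGGAA at -30 and AGGAAG, on the other strand, at -52. The Ctss window is chr3:95526536-95526785 on the plus strand, with GAGGAA at -164. The P2ry12 window is chr3:59262986-59263235 on the minus strand, with AGGAAG at -52.
Cd53: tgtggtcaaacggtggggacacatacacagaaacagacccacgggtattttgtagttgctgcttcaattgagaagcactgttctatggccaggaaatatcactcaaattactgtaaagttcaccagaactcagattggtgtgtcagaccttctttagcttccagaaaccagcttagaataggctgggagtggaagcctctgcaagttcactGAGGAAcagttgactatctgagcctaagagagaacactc
C1qb: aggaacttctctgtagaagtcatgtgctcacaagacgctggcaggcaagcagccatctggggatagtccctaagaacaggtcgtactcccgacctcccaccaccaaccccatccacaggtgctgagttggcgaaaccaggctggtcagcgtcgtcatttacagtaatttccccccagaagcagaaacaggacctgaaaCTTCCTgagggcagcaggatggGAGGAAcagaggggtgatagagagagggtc
Ctss: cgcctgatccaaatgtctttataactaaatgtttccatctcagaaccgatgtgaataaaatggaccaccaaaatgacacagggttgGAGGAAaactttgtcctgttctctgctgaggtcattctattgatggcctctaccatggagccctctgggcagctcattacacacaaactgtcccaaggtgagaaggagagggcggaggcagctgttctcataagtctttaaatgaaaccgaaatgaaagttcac
P2ry12: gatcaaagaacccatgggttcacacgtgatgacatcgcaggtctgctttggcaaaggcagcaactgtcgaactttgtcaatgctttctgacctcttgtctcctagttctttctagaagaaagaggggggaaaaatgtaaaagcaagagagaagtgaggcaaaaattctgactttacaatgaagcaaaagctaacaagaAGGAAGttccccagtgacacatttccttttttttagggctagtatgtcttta

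Libraries held between 1878418 and 5521679 estimated counts, so that 3 counts correspond to 0.543 to 1.60 CPM, which are counts relative to the library total. The 30 members together took between 0.0603% and 0.284% of the counts. The 14 astrocyte markers, such as Aldoc and Slc1a3, summed to between 7982 and 29659 CPM. Markers of other cells were counted beside them: in 1X PBS replicate 2 the astrocyte sum was 8442 CPM, the oligodendrocyte sum 6595, the monocyte sum 3452 and the neutrophil sum 1125. The libraries labelled 1X PBS replicate 1 and 1X cytokine replicate 1 stood apart from the others of their label. Lcn2, an acute-phase gene that inflammatory cytokines induce in astrocytes, gave 5.33, 1076 and 776 CPM under the label 1X PBS, against 797, 11.5 and 3.85 under 1X cytokine. Under 2X PBS it had 570.1, 363 and 425, against 15, 2.26 and 1.2 under 2X cytokine. In the 2X groups, and in replicates 2 and 3 of the 1X groups, this order is the reverse of the induction known for Lcn2. The groups are therefore named below strictly by the labels of their libraries, directions are drawn between labels, and results that rest on the 2 libraries are given with and without them.

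The members were not equally abundant. On the TPM scale, which divides by transcript length and so allows genes to be compared, the highest means over the 12 libraries were those of Tyrobp (263), Ctss (173), Fcer1g (162), C1qb (147), Laptm5 (98.8) and C1qa (94.0), all shared myeloid members. Csf1r, the receptor for the growth factors that keep microglia alive, led the homeostatic members with 76.7. P2ry12 had 31.6, Cx3cr1 30.8 and Tmem119 36.2. The lowest means were those of the activated members Itgax (0.989) and Cst7 (1.31). The values of individual libraries that follow are CPM on TMM-scaled library sizes, in the order of replicates 1 to 3, and they compare libraries for a given gene, not genes with each other.

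**Figure D1:**
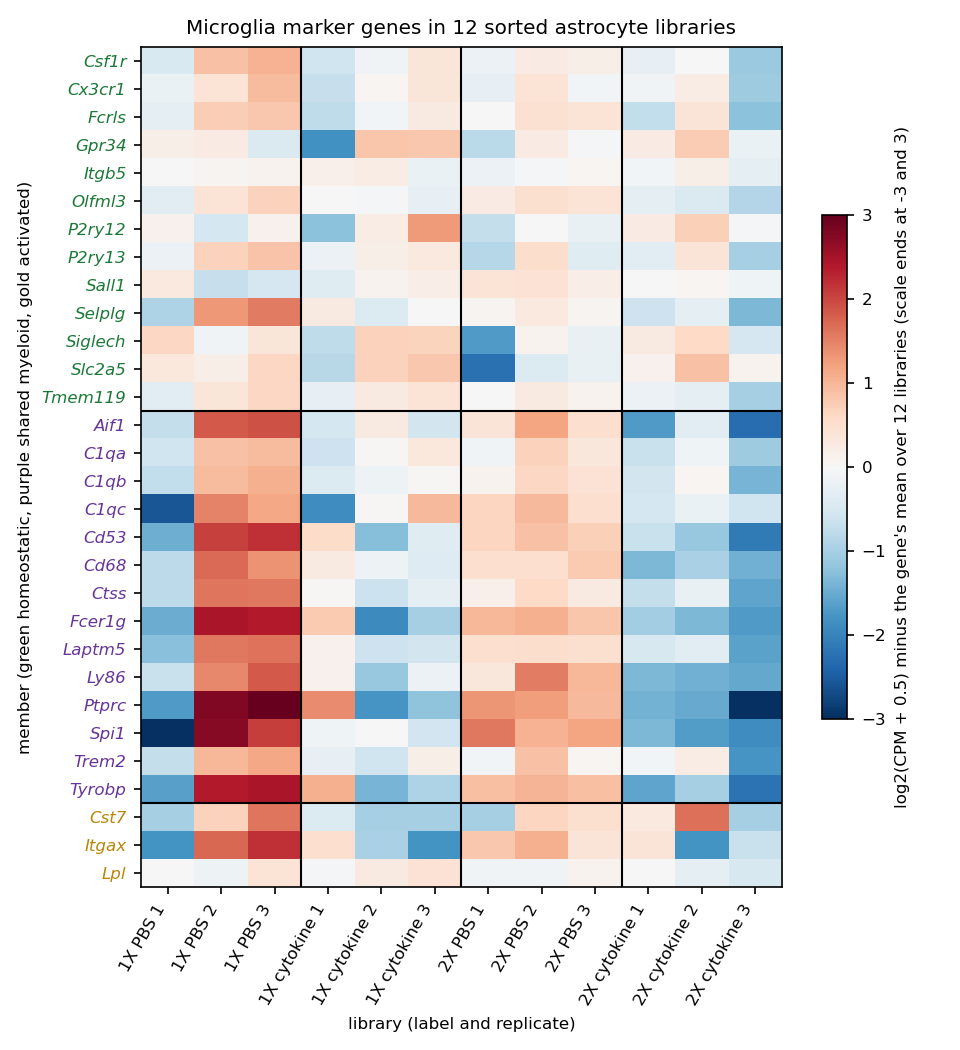
Level of each of the 30 members in each of the 12 libraries, as log2(CPM + 0.5) minus the gene's mean over the libraries, grouped into homeostatic, shared myeloid and activated members. The shared myeloid block is highest in the libraries labelled 1X PBS replicates 2 and 3, intermediate in 1X cytokine replicate 1 and the 2X PBS libraries, and lowest in 2X cytokine, 1X PBS replicate 1 and 1X cytokine replicates 2 and 3, while several homeostatic members do not follow that order.

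Tyrobp (chr7:30413760-30417585) and Fcer1g (chr1:171229572-171234365) encode adaptor proteins that carry the activating signal of myeloid receptors. Tyrobp gave CPM values of 13.3, 221 and 229.6 in 1X PBS, then 87.7, 15.7 and 22.0 in 1X cytokine, 78.7, 85.7 and 78.2 in 2X PBS, and 13.6, 20.7 and 8.70 in 2X cytokine. Fcer1g had 11.4, 183 and 173 in 1X PBS, then 57.0, 8.45 and 16.5 in 1X cytokine, 66.9, 69.4 and 59.2 in 2X PBS, and 15.7, 12.8 and 9.90 in 2X cytokine. For both adaptors every library labelled 2X PBS lay above every library labelled 2X cytokine, whereas the 1X groups overlapped, because replicate 1 of each lay on the other group's side. Trem2 (chr17:48346401-48354147), a lipid-sensing receptor that signals through the Tyrobp protein, had 7.99, 27.4 and 30.8 in 1X PBS, then 11.3, 8.83 and 15.4 in 1X cytokine, 12.7, 25.2 and 14.2 in 2X PBS, and 12.9, 15.8 and 3.60 in 2X cytokine. Its 2X groups overlapped, unlike those of Tyrobp.

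Ptprc (chr1:138062861-138175708) encodes CD45, the phosphatase carried by all white blood cells and at a lower level by microglia. It gave CPM values of 4.94, 121 and 139 in 1X PBS, then 46.2, 4.61 and 7.14 in 1X cytokine, 43.2, 41.4 and 34.1 in 2X PBS, and 6.07, 5.65 and 1.5 in 2X cytokine. Spi1 (chr2:91082390-91115756), the gene of PU.1, had 0, 26.0 and 16.5 in 1X PBS, then 3.20, 3.46 and 2.20 in 1X cytokine, 11.4, 7.75 and 8.59 in 2X PBS, and 1.07, 0.754 and 0.600 in 2X cytokine. The 2X cytokine values of Spi1 rest on 3, 2 and 2 estimated counts, close to the floor, and 1X PBS replicate 1 had none. Cd53 (chr3:106759921-106790149), a tetraspanin of white blood cells, had 8.37, 101 and 112 in 1X PBS, then 35.6, 9.60 and 18.7 in 1X cytokine, 37.7, 44.4 and 39.4 in 2X PBS, and 15, 10.5 and 5.10 in 2X cytokine. All 3 genes separated the 2X groups without overlap.

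The lysosomal members separated the 2X groups too. Ctss (chr3:95526786-95556403), a cysteine protease of the antigen-presenting pathway, gave CPM values of 70.7, 373 and 369.7 in 1X PBS, then 127, 78.3 and 101 in 1X cytokine, 136, 187 and 149 in 2X PBS, and 74.6, 106 and 41.1 in 2X cytokine. Laptm5 (chr4:130913125-130936141), a lysosomal membrane protein of blood cells, had 38.4, 279.8 and 285 in 1X PBS, then 102, 60.3 and 63.2 in 1X cytokine, 131, 133 and 129 in 2X PBS, and 66.4, 73.5 and 30.002 in 2X cytokine. Cd68 (chr11:69664213-69666153), a lysosomal glycoprotein of macrophages, had 10.3, 59.6 and 46.9 in 1X PBS, then 21.9, 16.1 and 13.7 in 1X cytokine, 25.8, 26.1 and 31.7 in 2X PBS, and 6.78, 9.04 and 6.30 in 2X cytokine. Every 2X PBS library lay above every 2X cytokine library for these genes. Ly86 (chr13:37345208-37419036), which encodes the partner of a Toll-like receptor homologue, had 30.9, 72.0 and 49.4 in 2X PBS and 9.28, 8.67 and 8.10 in 2X cytokine, and ranged from 10.8 to 89.3 in the 1X libraries. Aif1 (chr17:35170991-35176068), the actin-binding protein Iba1 that is the common stain for microglia, had 1.9, 13.6 and 14.4 in 1X PBS, then 2.21, 4.22 and 2.20 in 1X cytokine, 4.66, 8.45 and 5.03 in 2X PBS, and 0.714, 2.64 and 0.300 in 2X cytokine. Its 2X groups did not overlap.

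C1qa, C1qb and C1qc encode the chains of C1q, the complement component that tags material for removal and that microglia produce in the brain. They lie side by side within chr4:136880129-136898803 and are all read from the minus strand. C1qb gave CPM values of 51.4, 167 and 181 in 1X PBS, then 65.1, 77.6 and 88.5 in 1X cytokine, 92.7, 133 and 116 in 2X PBS, and 58.6, 89.3 and 32.7 in 2X cytokine. C1qa had 48.7, 85.2 and 66.3 in 2X PBS and 32.8, 48.2 and 24.9 in 2X cytokine, and C1qc had 29.2, 36.4 and 26.4 against 12.5, 15.8 and 12.0. Each chain was higher in all 3 libraries labelled 2X PBS, although for C1qa the nearest libraries were only 48.7 and 48.2. In 1X PBS replicate 1 the C1qc value was 2.66, against 34.6 for C1qa.

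**Figure D2:**
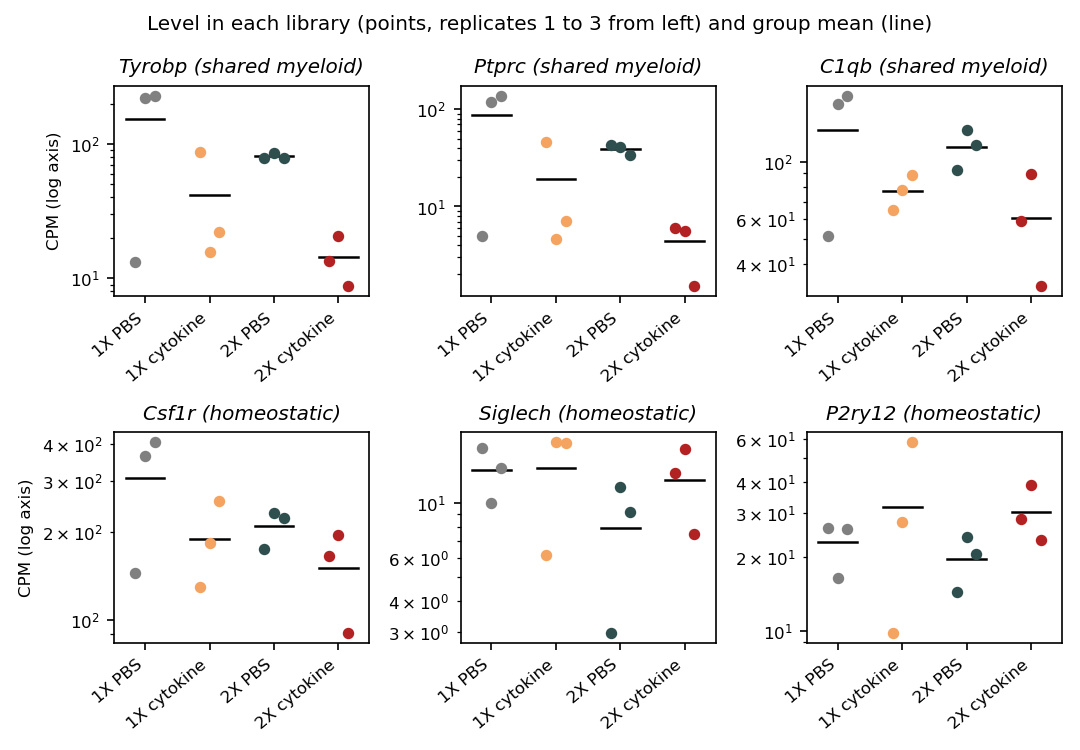
CPM of Tyrobp, Ptprc, C1qb, Csf1r, Siglech and P2ry12 in each of the 12 libraries on a log axis, with a line at the mean of each label group. Tyrobp and Ptprc spread widely and separate the 2X groups, C1qb and Csf1r spread less, and P2ry12 and Siglech have higher means in 2X cytokine than in 2X PBS, with overlapping libraries.

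The homeostatic members were mixed. P2ry12, Siglech and Gpr34 had higher means in 2X cytokine than in 2X PBS, while Tmem119, Csf1r, Cx3cr1, Fcrls and P2ry13 had lower ones, and the difference between homeostatic and shared myeloid members was not tested. P2ry12 (chr3:59216272-59262871), an ADP receptor that guides microglial processes, gave CPM values of 26.2, 16.3 and 26.0 in 1X PBS, then 9.83, 27.6 and 58.2 in 1X cytokine, 14.4, 23.9 and 20.4 in 2X PBS, and 28.6, 39.2 and 23.4 in 2X cytokine. Siglech (chr7:55768178-55778925), a sialic acid-binding lectin, had 16.7, 9.97 and 13.9 in 1X PBS, then 6.14, 17.7 and 17.6 in 1X cytokine, 2.96, 11.6 and 9.18 in 2X PBS, and 13.2, 16.6 and 7.50 in 2X cytokine. Gpr34 (chrX:13632089-13640858), a lysophospholipid receptor, had 12.2, 12.7 and 7.89 in 1X PBS, then 2.70, 19.6 and 19.2 in 1X cytokine, 5.93, 12.9 and 10.4 in 2X PBS, and 12.9, 18.5 and 9.30 in 2X cytokine. For all 3 receptors the 2X groups overlapped. In 1X cytokine all 3 were lowest in replicate 1, the library of that label with the highest Tyrobp. Slc2a5 (chr4:150119283-150144169), a fructose transporter, had 0.423, 2.82 and 3.26 in 2X PBS and 4.28, 7.54 and 4.20 in 2X cytokine, and was the only member whose 2X cytokine libraries all lay above the 2X PBS libraries, on 1 to 20 estimated counts a library.

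Tmem119 (chr5:113793729-113800516), a membrane protein used to tell microglia from incoming macrophages, gave CPM values of 42.2, 67.9 and 81.6 in 1X PBS, then 44.2, 64.1 and 70.3 in 1X cytokine, 52.5, 64.1 and 57.4 in 2X PBS, and 46.8, 43.7 and 26.4 in 2X cytokine. Cx3cr1 (chr9:119901616-120069879), the receptor for the neuronal chemokine fractalkine, had 55.4, 87.5 and 62.5 in 2X PBS and 61.4, 77.6 and 31.5 in 2X cytokine. Csf1r had 145, 366 and 407 in 1X PBS, then 131, 184 and 255 in 1X cytokine, 175, 233 and 224 in 2X PBS, and 166, 195 and 90.6 in 2X cytokine. Tmem119 did not overlap between the 2X groups, while Cx3cr1 and Csf1r did. Fcrls (chr3:87250758-87263738), an Fc receptor-like scavenger receptor, had 45.7, 62.5 and 60.1 in 2X PBS and 26.8, 59.2 and 19.2 in 2X cytokine, and P2ry13 (chr3:59207892-59210882), a neighbouring ADP receptor gene, had 5.93, 16.4 and 8.59 against 8.93, 14.7 and 5.40. Both overlapped. P2ry12 and P2ry13 lie inside Med12l, and Gpr34 inside the span of Cask, each on the opposite strand. Csf1r overlaps Hmgxb3 on the opposite strand, and Cx3cr1 overlaps 9 genes, among them Wdr48 and Ttc21a on the opposite strand. These overlaps are of whole gene spans. Whether the transcripts share sequence, which would make their counts uncertain without strand, was not tested.

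Selplg and Olfml3 were the homeostatic members closest to the shared myeloid pattern. Selplg (chr5:113818536-113832644), the ligand of selectins, is used by many white blood cells as well, and gave CPM values of 33.9, 162 and 191 in 1X PBS, then 78.4, 48.8 and 64.3 in 1X cytokine, 68.6, 80.1 and 69.0 in 2X PBS, and 42.1, 53.5 and 25.2 in 2X cytokine. Olfml3 (chr3:103722222-103738001), a secreted matrix protein, had 55.5, 93.1 and 114 in 1X PBS, then 71.0, 67.6 and 59.3 in 1X cytokine, 83.0, 98.6 and 93.3 in 2X PBS, and 56.8, 51.6 and 37.8 in 2X cytokine. Of the counts assigned to Olfml3, 85.8% lay on a transcript with a retained intron rather than on the coding transcript. Sall1 (chr8:89027235-89044162), a transcription factor of microglial identity that some astrocytes and neural progenitors also use, had 36.1, 18.0 and 20.6 in 1X PBS, then 22.6, 31.5 and 34.1 in 1X cytokine, 39.4, 39.8 and 33.8 in 2X PBS, and 29.3, 30.9 and 26.7 in 2X cytokine. Its 1X PBS replicate 1 lay above the others of that label, the reverse of Tyrobp. Itgb5 (chr16:33829665-33949338), an integrin subunit found in many cell types, stayed between 79.2 and 113 in all 12 libraries.

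The activated members were near the limit of detection, apart from Lpl. Cst7, a cystatin-type protease inhibitor, had 34 estimated counts in all 12 libraries together, with 0, 6 and 3 in 2X PBS and 2, 7 and 0 in 2X cytokine. Itgax, the integrin CD11c of dendritic cells and activated microglia, had 0, 18.8 and 31.9 estimated counts in 1X PBS, then 8, 1 and 0 in 1X cytokine, 6, 17.9 and 6 in 2X PBS, and 5, 0 and 2 in 2X cytokine. Neither passed the low count filter of the fit of 12 libraries, and that fit holds no value for them. Lpl (chr8:68880491-68907448), the lipoprotein lipase that other brain cells also make, lay between 15 and 28.6 CPM in all 12 libraries, and 45.9% of its counts were on a transcript marked for nonsense-mediated decay.

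The comparison of the 2X cytokine with the 2X PBS label asks what differs after a repeated cytokine injection. No library of either label lay with the other label in Lcn2. The order of Lcn2 between the labels was nonetheless the reverse of its known induction. Libraries also differed within 2X cytokine: over replicates 1 to 3 the members summed to 938, 1156 and 587 CPM. The neutrophil markers summed to 170, 34.3 and 11.4 CPM there. Of 28 members tested, 23 had a lower mean under 2X cytokine and 5 had a higher mean. Their median log2 fold change was -0.89, against 0.00 over all 14490 genes. Shared myeloid members had a median of -1.96 and homeostatic members one of -0.28. The 2X cytokine libraries all lay below the 2X PBS libraries for 17 members, 13 of 14 shared myeloid and 4 of 13 homeostatic (Olfml3, Tmem119, Selplg and Sall1), where 14.1% of all genes did so. They all lay above for 1 member, Slc2a5, where 11.2% of all genes did so. In bulk samples fewer cells of a type and less RNA per cell cannot be told apart.

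In the fit of all 12 libraries, edgeR's quasi-likelihood test with Benjamini-Hochberg adjustment called 0 of the 28 members, where 0.0345% of all genes were called. At an unadjusted p under 0.05 it had 11 members, where 9.68% of all genes passed. DESeq2 called 2 members after adjustment, where 0.256% of its genes were called, and the lowest adjusted p of the edgeR fit was 0.204, for Ly86. Here and below, DESeq2 shares are over 33552 genes, low-count genes included, and cannot be set beside the edgeR shares of 14490 filtered genes. Without 1X PBS replicate 1 the same edgeR fit called 5 members, where 0.827% of all genes were called. This fit takes 1 estimate of the spread from all 4 groups, the split 1X groups included. In the fit of the 6 libraries of the 2X groups alone, listed as an alternative with earlier results known, edgeR called 15 of 28 members, all lower in 2X cytokine, where 7.74% of all genes were called and 5.31% were lower. They were 13 of 14 shared myeloid members and 2 of 13 homeostatic members, Selplg and Olfml3. The remaining shared myeloid member, Trem2, had a log2 fold change of -0.78 at an adjusted p of 0.304.

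By edgeR's quasi-likelihood test on these 6 libraries, with Benjamini-Hochberg adjustment, the fold changes furthest from 0 were those of genes that monocytes, macrophages or white blood cells in general also use. Spi1 fell by 3.44 on the log2 scale (SE 0.43, adjusted p 0.000388), Ptprc fell by 3.20 (SE 0.30, adjusted p 3.55e-05) and Ly86 fell by 2.59 (SE 0.29, adjusted p 0.000163). Tyrobp fell by 2.52 (SE 0.20, adjusted p 1.17e-05) and its fellow adaptor Fcer1g fell by 2.35 (SE 0.16, adjusted p 3.13e-06). Aif1 fell by 2.40 (SE 0.58, adjusted p 0.0236), Cd53 fell by 2.01 (SE 0.26, adjusted p 0.000428) and Cd68 fell by 1.91 (SE 0.20, adjusted p 9.05e-05). The log2 fold changes of these 8 genes were further from 0 than those of all other members tested.

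The smaller falls were those of Laptm5 (-1.22, SE 0.22), Ctss (-1.10, SE 0.24) and the C1q chains. C1qc had -1.21 (SE 0.19), C1qa -0.96 (SE 0.23) and C1qb -0.95 (SE 0.26) on the log2 scale. Among the homeostatic members, Olfml3 had -0.92 (SE 0.14) and Selplg -0.87 (SE 0.20). The edgeR adjusted p-values of these 7 genes lay between 0.00173 for Olfml3 and 0.044 for C1qb. The other 11 homeostatic members did not pass, and their log2 fold changes ran from -0.72 for Fcrls to 1.16 for Slc2a5. Outside the rule for naming fold changes, and chosen after its values were seen, P2ry12 had 0.58 (SE 0.22) at an edgeR adjusted p of 0.145. Leaving out each of the 6 libraries in turn, an alternative chosen after seeing the data, gave 10 to 16 calls, the lowest without 2X PBS replicate 2 or 3, with 10 genes called every time: C1qc, Cd53, Cd68, Fcer1g, Laptm5, Ly86, Olfml3, Ptprc, Spi1 and Tyrobp. The shares of all genes called were 5.52%, 4.84% and 4.8% without replicates 1 to 3 of 2X PBS, and 5.77%, 6.41% and 6.69% without those of 2X cytokine. Each of the 15 was also called in a fit of 10 libraries without the 1X replicate 1 pair, where 7.02% of all genes were called. That fit compares the same 6 libraries, so it is not separate support.

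**Figure D3:**
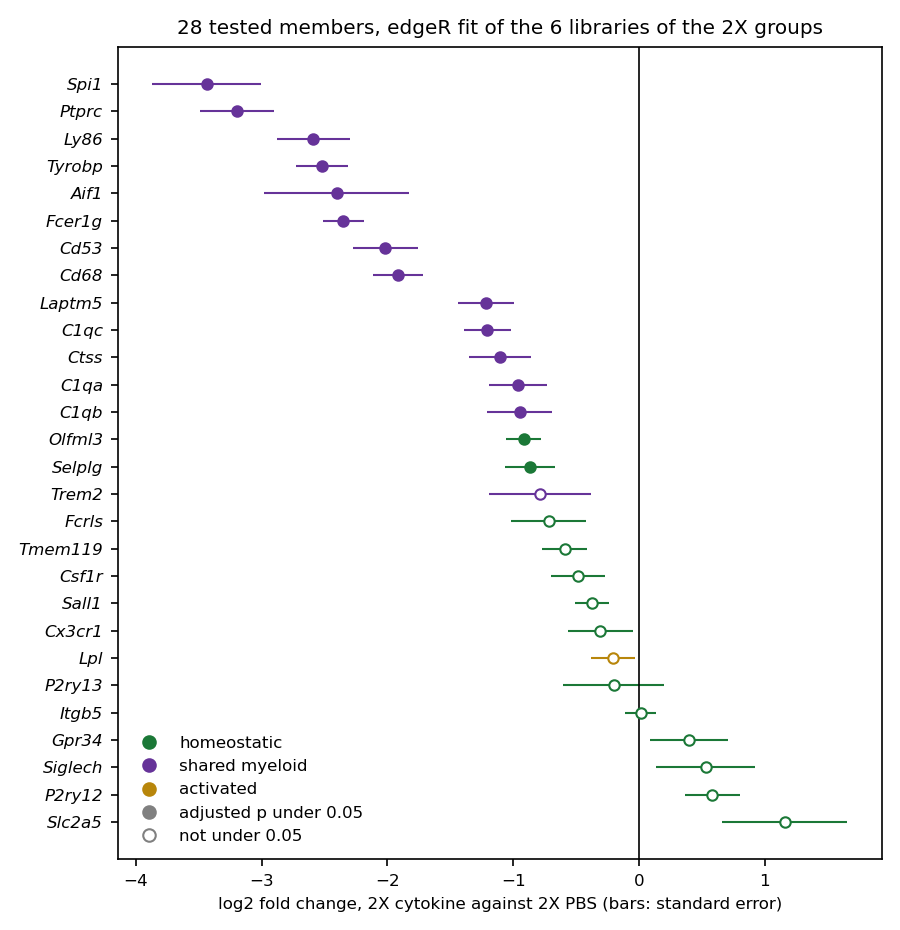
Log2 fold change of 28 members between the libraries labelled 2X cytokine and 2X PBS, from the edgeR fit of these 6 libraries, with bars of 1 SE and filled points for an adjusted p under 0.05. The 15 filled points all lie below 0, from -3.44 for Spi1 to -0.87 for Selplg, and Itgb5, P2ry12, Siglech, Gpr34 and Slc2a5 lie above 0 with open points.

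The make-up of the members' counts also differed between the 2X labels. Homeostatic members held 45.1%, 45.8% and 47.5% of the members' counts in 2X PBS (mean 46.1% ± 1.21, SD, n = 3) and 62.7%, 62.0% and 65.9% in 2X cytokine (63.5% ± 2.05). Shares of counts depend on gene length: by TPM, which removes it, the homeostatic share was 22.2% ± 0.671 in 2X PBS and 40.9% ± 2.86 in 2X cytokine. The groups did not overlap on either scale, and the shared myeloid share of counts went the other way, from 50.9% to 53.3% in 2X PBS and from 31.5% to 36.3% in 2X cytokine. In the 1X groups the homeostatic share of counts was 66.2%, 36.3% and 39.1% in 1X PBS and 46.0%, 64.0% and 62.0% in 1X cytokine, so that again replicate 1 of each label lay with the other. The ratio of Tyrobp to P2ry12 within a library was 5.47, 3.58 and 3.83 in 2X PBS and 0.475, 0.529 and 0.372 in 2X cytokine. It was 0.507, 13.5 and 8.84 in 1X PBS and 8.92, 0.569 and 0.377 in 1X cytokine. No library lay between 0.569 and 3.58. Scaled to the sum of the members in each library instead of to all counts, the members' median log2 difference between the 2X labels was -0.03, with P2ry12 at 1.5, Siglech at 1.62 and Gpr34 at 1.36, and Tyrobp at -1.65, Ptprc at -2.32 and Spi1 at -2.01. On that scale a ratio shows unequal change only, not which gene stayed level.

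Cells other than microglia use the shared myeloid genes, so lists of their markers were measured in the same libraries. The 12 monocyte markers, such as Ccr2, Cd14 and Lyz2, summed to 955 to 1123 CPM in 2X PBS and 185 to 340 in 2X cytokine, 1 of them being at 0 in every 2X cytokine library. The 12 neutrophil markers summed to 274 to 374 CPM in 2X PBS and 11.4 to 170 in 2X cytokine, and the 12 markers of border-associated macrophages, which live at the brain's surfaces, to 57.6 to 69.0 and 18.9 to 35.0. In the 1X groups the monocyte sum ran from 224 to 3452 CPM in 1X PBS and from 212 to 1128 in 1X cytokine, and the neutrophil sum from 23.6 to 1351 and from 16.1 to 545. These sums were high in the libraries where the shared myeloid members were high. In the 6 libraries of the 2X groups edgeR called 7 of 9 tested monocyte, 5 of 8 neutrophil and 3 of 5 border-associated macrophage markers. All were lower in 2X cytokine, where 7.74% of all genes were called and 5.31% were lower. The 14 lymphocyte markers stayed between 4.22 and 22.5 CPM in sum, with 7 at 0 in every 2X cytokine library. The part of monocytes, neutrophils and border-associated macrophages in the change of the shared myeloid members was not tested.

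Single markers of these cells followed the same order of libraries. Ccr2, the chemokine receptor of inflammatory monocytes, gave CPM values of 1.14, 69.8 and 76.1 in 1X PBS, then 18.7, 1.15 and 2.20 in 1X cytokine, 25.0, 27.6 and 23.1 in 2X PBS, and 1.07, 2.26 and 0 in 2X cytokine. S100a8, a calcium-binding protein abundant in neutrophils, had 4.94, 294 and 392 in 1X PBS, then 129, 1.54 and 4.95 in 1X cytokine, 85.1, 87.1 and 85.3 in 2X PBS, and 34.6, 8.29 and 1.5 in 2X cytokine. Both genes were high in the same 6 libraries as Tyrobp. The astrocyte markers summed to 20053 to 22627 CPM in 2X PBS and 22447 to 26581 in 2X cytokine, and the oligodendrocyte markers to 3036 to 4415 and 5737 to 6899. In 1X PBS replicates 2 and 3 the astrocyte sum was 8442 and 7982, against 29659 in replicate 1.

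**Figure D4:**
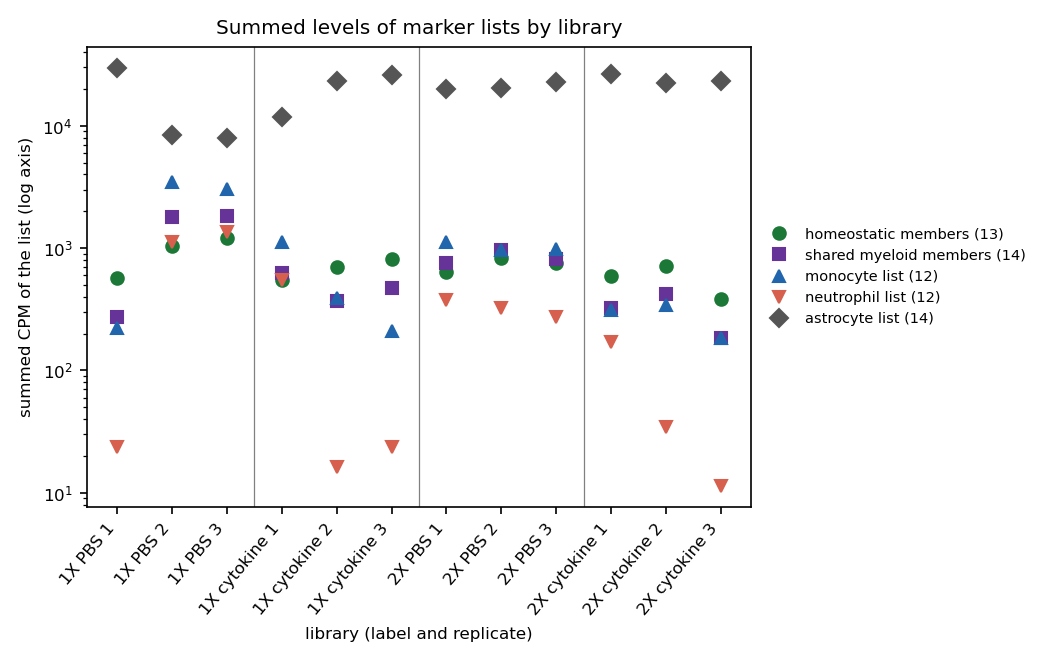
Summed CPM of the homeostatic and shared myeloid members and of the monocyte, neutrophil and astrocyte marker lists in each of the 12 libraries, on a log axis. The shared myeloid, monocyte and neutrophil sums are high in the libraries labelled 1X PBS replicates 2 and 3, 1X cytokine replicate 1 and 2X PBS, the homeostatic sum varies 3.11-fold from its lowest to its highest library, and the shared myeloid sum varies 9.91-fold.

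Further genes of microglia that are not members were measured in the same way. Of these lists, Lyz2 stands in the monocyte list and the disease-associated list, and Csf1 in the disease-associated list and the ligand list. For the counts of each list, the edgeR fit of the 6 libraries of the 2X groups called 7.74% of all genes, and 5.31% were lower. Of 29 tested genes of the resting microglial programme, edgeR called 15 lower and 0 higher in these 6 libraries, with a median log2 fold change of -1.05. Csf3r, the receptor for the granulocyte growth factor, belongs to that list and had 114, 70.2 and 74.0 CPM in 2X PBS, against 9.28, 12.8 and 4.80 in 2X cytokine. It fell by 3.26 on the log2 scale (SE 0.27, edgeR adjusted p 1.48e-05), whereas Mertk, a receptor for dying cells that astrocytes also express, had 178, 179 and 177 against 229, 203 and 202 and did not pass (0.26, edgeR adjusted p 0.108). Of 23 tested genes linked to disease-associated microglia, 17 were called lower and 1 higher, the lipid carrier Apoe, which astrocytes produce in bulk (0.37, SE 0.08, edgeR adjusted p 0.0187). Of 9 tested ligands of microglial receptors 2 were called, both lower. Csf1, a ligand of the Csf1r protein, had 75.3, 71.6 and 54.8 CPM in 2X PBS and 38.6, 40.3 and 29.1 in 2X cytokine (-0.90, SE 0.16, edgeR adjusted p 0.00369). Pros1, which bridges dying cells to the Mertk protein, had 135, 109 and 105 against 55.7, 53.9 and 52.2 (-1.09, SE 0.12, edgeR adjusted p 0.00011). Il34, the other ligand of the Csf1r protein, and Cx3cl1, the ligand of the Cx3cr1 protein, did not pass (-0.53 and -0.04, edgeR adjusted p 0.156 and 0.897).

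Across the 12 libraries the genes that followed Tyrobp most closely were given by Spearman's rho of log2(CPM + 0.5) over 12010 protein-coding genes with a mean CPM of at least 5. Outside the members, Alox5ap, the activator of leukotriene synthesis, Cd300a and Pik3r5 had 0.993, Bcl2a1b 0.986, Cd37, Msrb1 and Rgs10 0.979, Acvrl1 and Mxd1 0.972 and Cd74, the invariant chain of class II antigen presentation, 0.965. Among the members Selplg had 0.986, Ptprc 0.958, Ctss 0.937 and Cd53 0.930. Csf1r and Tmem119 had 0.650 each, and P2ry12 had -0.476, Gpr34 -0.378 and Siglech -0.301. With P2ry12 as the reference, chosen after its values were seen, Siglech had 0.867 and Gpr34 0.811, while Csf1r had 0.196, Cx3cr1 0.336 and Tmem119 0.112. The libraries shared their depth and make-up across genes, so these coefficients describe the 12 libraries and carry no test.

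After a single injection most members again had lower fitted levels under the cytokine label, but between groups that were each split. The fitted log2 fold change was below 0 for 23 of 28 members, with a median of -0.75. Spi1 had -2.25 (SE 0.87), Fcer1g -2.10 (SE 0.78), Ptprc -2.09 (SE 0.91) and Tyrobp -1.84 (SE 0.80), all at an edgeR adjusted p of 0.866. EdgeR called 0 members, where 0.0% of all genes were called. Before adjustment 10 members had a p under 0.05, where 5.4% of all genes did, and DESeq2 called 0, where 0.00894% of its genes were called. For 0 members did the 1X cytokine libraries all lie below the 1X PBS libraries, where 3.29% of all genes did so. Without 1X PBS replicate 1 alone edgeR called 13 members, where 7.55% of all genes were called. In 1X PBS replicate 1 Tyrobp was 13.3 CPM, within the range of the libraries labelled 2X cytokine (8.70 to 20.7).

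Without 1X PBS replicate 1 and 1X cytokine replicate 1, edgeR called 17 of 29 members tested between the 1X labels, where 23.5% of all genes were called. Of these 16 were lower in 1X cytokine and 1, Sall1, was higher by 0.77 on the log2 scale (SE 0.17, adjusted p 0.00474). Ptprc fell by 4.48 (SE 0.31, edgeR adjusted p 3.1e-07), Fcer1g fell by 3.88 (SE 0.22, edgeR adjusted p 9.14e-08) and Tyrobp fell by 3.59 (SE 0.24, edgeR adjusted p 2.54e-07). The others called lower were Itgax, Cd53, Spi1, Ly86, Laptm5, Ctss, Aif1, Cd68, Selplg, C1qb, Csf1r, C1qc and Olfml3. The call of Itgax rests on 1 estimated count in the remaining 1X cytokine libraries. C1qa, Trem2, Tmem119, Cx3cr1 and P2ry12 were not called. This fit holds 2 libraries of each 1X label, and the pair was left out with its values known.

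The comparisons between 2X and 1X libraries of the same treatment ask whether an earlier injection changes the later state, and they share libraries with the comparisons above. EdgeR called 0 of 28 members between 2X cytokine and 1X cytokine, where 0.0276% of all genes were called, with 3 members at an unadjusted p under 0.05 (7.0% of all genes) and 0 called by DESeq2 (0.0209% of its genes). The median log2 fold change was -0.46, and the differences furthest from 0 were those of Ptprc (-2.28, SE 1.15), Spi1 (-1.87, SE 1.22), Tyrobp (-1.61, SE 0.88) and Aif1 (-1.28, SE 0.88). Without the 1X replicate 1 pair edgeR called 0 of 29, where 0.0202% of all genes were called. Between 2X PBS and 1X PBS edgeR called 0 of 28 members, where 0.0% of all genes were called, with 1 member at an unadjusted p under 0.05 (6.31% of all genes) and 0 called by DESeq2 (0.0358% of its genes). Ptprc had -1.17 (SE 0.87), Tyrobp -0.94 (SE 0.77), Fcer1g -0.92 (SE 0.74) and Cd53 -0.87 (SE 0.66).

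Without 1X PBS replicate 1 edgeR called 7 members between 2X PBS and 1X PBS, where 7.39% of all genes were called. Without the same pair, it called 11 of 29 members, where 18.6% of all genes were called. Lower in 2X PBS were Ptprc, Tyrobp, Fcer1g, Cd53, Selplg, Ctss, Spi1, Laptm5, Cd68 and Csf1r, and Sall1 was higher by 0.98 on the log2 scale (SE 0.15, adjusted p 0.000404). The difference between the 2X and the 1X cytokine responses was tested as an interaction. EdgeR called 0 of 28 members for it, where 0.0% of all genes were called, 0 members had a p under 0.05 before adjustment (5.2% of all genes), and DESeq2 called 0 (0.0387% of its genes). Without the pair, left out with its values known, edgeR called 2 of 29, no larger a share than the 9.33% of all genes called. For Fcer1g the interaction was then 1.53 (SE 0.31, edgeR adjusted p 0.0076), its difference between the labels being smaller in the 2X groups. For Sall1 it was -1.14 (SE 0.21, edgeR adjusted p 0.00447). In the fit of 12 libraries the interaction was -0.25 for Fcer1g (SE 1.12), of the opposite sign, and -0.62 for Sall1 (SE 0.34). Sall1 in 1X PBS replicates 2 and 3 had 18.0 and 20.6 CPM, the lowest pair of the 12 libraries, and these are the libraries with the lowest sums of astrocyte markers.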

How the data were processed

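RNA-seq of sorted astrocytes was analysed in 12 libraries, 3 for each of 4 labels, and the ATAC-seq samples were not used here. Per the labels' protocols, libraries followed SMART-Seq2 and kallisto 0.46.1 assigned reads to GRCm38 transcripts. The deposited estimated counts carry no scaling between libraries. The authors' deposited TPM values are relative to transcript length and sum to the same total in each library. The sources used here do not state use of strand. SMART-Seq2 reads carry no molecular identifiers, so floors describe counting error only.

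Estimated counts of 142604 transcripts were summed per gene identifier and rounded. EdgeR 4.0.16 (R 4.3.3) tested 14490 genes by its quasi-likelihood test after filterByExpr and TMM scaling, with 1 coefficient per label over 12 libraries, and Benjamini-Hochberg adjustment at 0.05. Alternatives were DESeq2 1.42.0, limma 3.58.1 on log2 TPM with a pseudocount of 1 or 0.1, voom with quality weights, RLE scaling, other filters, a replicate block, fits of single comparisons, and leaving out libraries. The TPM fits moved the median of all genes by -0.14 to 0.18 (log2). Procedures were tested on simulated counts.

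The members and lists were chosen with earlier results of these data known. Fold changes are named for members called by edgeR and for the 4 furthest from 0 per comparison with a mean CPM of at least 5. From each other list at most 4 genes with the highest TPM and 4 with the smallest p are named. GENCODE M21 (GRCm38) gave gene positions, and RefSeq (GRCm38.p6) gave promoters.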

Additional observations from a re-analysis of the deposited data

How the results depend on the processing

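The number of members called by edgeR on 12 libraries was 0 in each comparison, and it changed with the setting. Between the 1X labels it was 9 without a filter beyond 1 count, 10 by voom with quality weights and 17 without both 1X replicate 1 libraries, and 0 to 13 when 1 library was left out, with 13 without 1X PBS replicate 1. Between the 2X labels it was 13 without a filter, 2 by DESeq2, 5 by voom, 15 in the 6 libraries alone and 15 without both 1X replicate 1 libraries. Leaving out 1 library gave 0 to 5 in the fit of 12, with 5 without 1X PBS replicate 1, and 10 to 16 in the fit of 6, namely 14, 10 and 10 on dropping replicates 1 to 3 of 2X PBS and 13, 16 and 12 on dropping those of 2X cytokine. Between the cytokine labels it was 1 without a filter, and leaving out a library gave 0 throughout. Between the PBS labels it was 8 by voom and 11 without both libraries, and 0 to 7 when 1 was left out, with 7 without 1X PBS replicate 1. For the interaction it was 2 without both libraries. RLE scaling, a mean CPM of at least 10 and limma on TPM called 0 members in each comparison.

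Libraries with the same replicate number did not deviate together (correlations from -0.68 to 0.19 over 18 pairs, median -0.03). Over the 36 pairs with other numbers the median was 0.01. The correlations furthest from 0 were between the split 1X groups, so this check cannot decide whether the numbers pair samples. The replicate block called 0 members in each comparison. Signs turned for Spi1 between the 1X labels (0.64 by limma on log2(TPM + 0.1)) and, between the PBS labels, for Tyrobp (0.0419 and 0.0471 on log2(TPM + 1) and log2(TPM + 0.1)), Fcer1g (0.0378 and 0.0455) and Cd53 (0.00989 on log2(TPM + 0.1)). The other 699 of 705 values kept their sign. The causes were not tested. At 0.543 to 1.60 CPM for 3 counts, Cst7, Itgax and, in 2X cytokine, Spi1 and Aif1 are limited by depth.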
